A study of Homo sapiens with 16 samples.

Results

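The melanocyte and neural crest transcription factors MITF, SOX10, PAX3, SOX9, TFAP2A, SNAI2, TWIST1, ZEB1, ZEB2 and LEF1 were followed across catalase-transfected melanoma cells and their controls. The genes were chosen by name, and for each the transcript cluster with the highest mean over all arrays was used. All 10 of the 10 genes were found, out of 18417 genes with a transcript cluster of 1 gene symbol and 33297 transcript clusters on the array. ZEB2 alone had a second cluster.

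The neural crest is an embryonic cell population that gives rise to melanocytes, among other cell types. MITF is the transcription factor that drives the pigment program of melanocytes, and SOX10, PAX3 and LEF1 are known to act on its promoter, while TFAP2A works beside MITF at melanocyte genes. SNAI2, TWIST1, ZEB1 and ZEB2 are repressors or activators known from the epithelial to mesenchymal transition, and in melanoma SNAI2 and ZEB2 are typical of the differentiated state and TWIST1 and ZEB1 of the dedifferentiated state, in which MITF is low and genes such as AXL are high.

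The arrays, Affymetrix Human Gene 1.0 ST, number 16, with total RNA of 4 groups on 4 arrays each. A375 is an amelanotic human melanoma line, and PCDNA3 is A375 carrying the empty pcDNA3 vector. In pcDNA3 a viral promoter drives the insert. A7 and G10 are A375 cells with pcDNA3 holding human catalase cDNA, each grown as 1 clone by clonal dilution, so that a difference of a clone from the control may belong to catalase or to the clone, which cannot be told apart. The transfected cells were selected and kept in geneticin, all cells were grown in serum-containing medium with ascorbic acid, pyruvic acid, galactose and insulin, and A375 itself was not transfected. The labels call the 4 arrays of a group biological replicates, and p values measure only the spread between these arrays. A375 and PCDNA3, their 2 means weighted equally, served as control. The A7 and G10 comparisons share these 8 arrays.

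All values are log2 intensities as deposited, and a difference of 1 is a 2-fold difference. Array medians lay between 5.85 and 5.97. Olfactory receptor genes, taken as a set that is mostly unexpressed, gave the level of unexpressed genes, 5.18 as the 95th percentile of 381 transcript clusters. Every one of the 10 transcription factors lay above this level in the mean of every group. All 11 measured melanocyte and melanoma markers also did so in at least 1 group, against 2 of 7 keratinocyte, 6 of 8 fibroblast, 1 of 6 endothelial, 1 of 7 leukocyte and 4 of 4 Schwann cell markers. PTPRC of leukocytes, PECAM1 and CDH5 of endothelium and KRT5 and DSG3 of keratinocytes stayed below it in all groups. Others lay above it in all groups, namely CD14 of leukocytes, KDR of endothelium, KRT14 and KRT10 of keratinocytes, FAP of fibroblasts and PMP2 of Schwann cells. CAT, which encodes catalase and is the transfected gene, read 8.64, 9.03, 8.65 and 8.62 in A375, 8.51, 8.51, 8.53 and 8.71 in PCDNA3, 9.02, 8.92, 9.12 and 9.02 in A7 and 8.51, 8.55, 7.74 and 8.27 in G10. CAT was therefore not higher in the arrays labelled G10, whose difference from control was -0.38 (SE 0.13, adjusted p = 0.0526), and the difference of A7 was 0.37 (SE 0.13, adjusted p = 0.124). Without G10 replicates 3 and 4 the G10 difference was -0.12 (adjusted p = 0.547) and the A7 difference passed the test (adjusted p = 0.0128). The G10 difference passed it without replicate 1 (-0.46, adjusted p = 0.0358) or replicate 2 (-0.48, adjusted p = 0.0281), and the A7 difference without G10 replicate 3 (adjusted p = 0.0216). With A375 alone as control the G10 difference passed it too (-0.47, adjusted p = 0.0480). So it did after quantile normalization (adjusted p = 0.0394), with a variance trend (0.0462) and without dim clusters (0.0329). The A7 difference also passed with only the arrays compared (adjusted p = 0.0207) or array weights (0.0256). G10 differed from A7 in CAT by -0.75 (SE 0.15, adjusted p = 0.00221), and every G10 array lay below every A7 array. Whether the CAT probes of the array lie within the transfected cDNA was not tested. Within G10, replicates 1 and 2 resembled each other most (r = 0.994 over all clusters), as did replicates 3 and 4 (r = 0.992), while the other G10 pairs had r between 0.984 and 0.987. Replicates 3 and 4 of G10 also had the lowest array weights of the 16 arrays (0.387 and 0.457), so several values that move with them are given with and without them. A value given only once may still move with them, as do those of INHBA, FN1 and ERBB3 in G10 below.

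Promoter sequence was at hand for 6 of the 10 genes (MITF, PAX3, TFAP2A, ZEB1, ZEB2 and LEF1). The windows are RefSeq's, in build GRCh38.p14, and run from 250 bases before to 50 bases after a start site. They are shown for the genes the results turn on: MITF at the start known for its melanocyte isoform (chr3:69936342-69936641, plus strand), ZEB2 (chr2:144520070-144520369, minus strand), TFAP2A at the inner of its 2 starts (chr6:10412342-10412641, minus strand), and the pigment gene TYRP1, the MITF target with the largest rise in A7 (chr9:12693135-12693434, plus strand). Capitals mark matches on either strand. The E-boxes searched were CACGTG and the form CATGTG, both known as MITF sites, CACCTG as a form bound by SNAI and ZEB factors, and CATCTG as a form bound by TWIST1. Other motifs were ACAAAG for SOX factors with its variant ACAATG, then CTTTGA for LEF1, GCCNNNGGC for AP-2 factors and the cyclic AMP response element TGACGTCA, which was added after the sequences were seen. The general form of the E-box is CANNTG, which 68.7% of all windows hold.
MITF: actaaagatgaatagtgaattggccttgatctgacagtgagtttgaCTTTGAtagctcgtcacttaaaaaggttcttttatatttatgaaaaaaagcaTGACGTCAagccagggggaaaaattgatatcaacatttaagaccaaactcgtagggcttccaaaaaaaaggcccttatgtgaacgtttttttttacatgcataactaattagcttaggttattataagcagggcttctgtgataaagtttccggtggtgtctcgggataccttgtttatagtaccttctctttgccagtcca
ZEB2: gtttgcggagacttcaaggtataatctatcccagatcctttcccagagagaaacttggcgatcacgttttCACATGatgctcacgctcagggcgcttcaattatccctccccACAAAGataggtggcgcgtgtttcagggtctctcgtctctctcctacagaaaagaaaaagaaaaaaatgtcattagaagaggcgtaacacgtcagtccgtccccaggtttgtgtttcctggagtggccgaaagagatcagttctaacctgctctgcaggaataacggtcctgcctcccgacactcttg
TFAP2A: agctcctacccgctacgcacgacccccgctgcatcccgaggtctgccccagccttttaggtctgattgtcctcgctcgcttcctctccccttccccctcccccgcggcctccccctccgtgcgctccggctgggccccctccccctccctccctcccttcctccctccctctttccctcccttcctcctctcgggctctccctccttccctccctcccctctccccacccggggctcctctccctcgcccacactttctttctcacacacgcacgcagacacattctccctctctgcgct
TYRP1: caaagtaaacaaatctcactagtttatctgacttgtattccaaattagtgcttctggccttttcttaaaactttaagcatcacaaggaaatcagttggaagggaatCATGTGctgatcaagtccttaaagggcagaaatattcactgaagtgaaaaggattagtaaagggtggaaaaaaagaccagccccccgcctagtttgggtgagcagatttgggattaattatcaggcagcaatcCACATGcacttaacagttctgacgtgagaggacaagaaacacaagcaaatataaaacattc
The MITF window held the LEF1 motif CTTTGA, whose first base lies at -204 from the start site, and TGACGTCA at -152, and it held no CANNTG match. Of these motifs, CTTTGA occurred in 12.9% and TGACGTCA in 1.85% of 35116 RefSeq promoter windows of this length. The TYRP1 window held CATGTG at -144 and again, on the other strand, at -11, and 11.1% of all windows held that motif. In the ZEB2 window CATGTG lay at -180 on the other strand and ACAAAG, which 16.1% of windows hold, at -138. The TFAP2A window shown had no match. The outer TFAP2A window and those of PAX3 and LEF1 had none either, apart from 1 other E-box of the general form in the outer TFAP2A window and 1 in that of LEF1. Among all windows, CACGTG was held by 7.26%, CACCTG by 20.6%, CATCTG by 14.7%, ACAATG by 10.8% and GCCNNNGGC by 23.2%. The 7 windows of ZEB1 are not shown. A match is a run of letters and not a measured binding site.

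**Figure D1:**
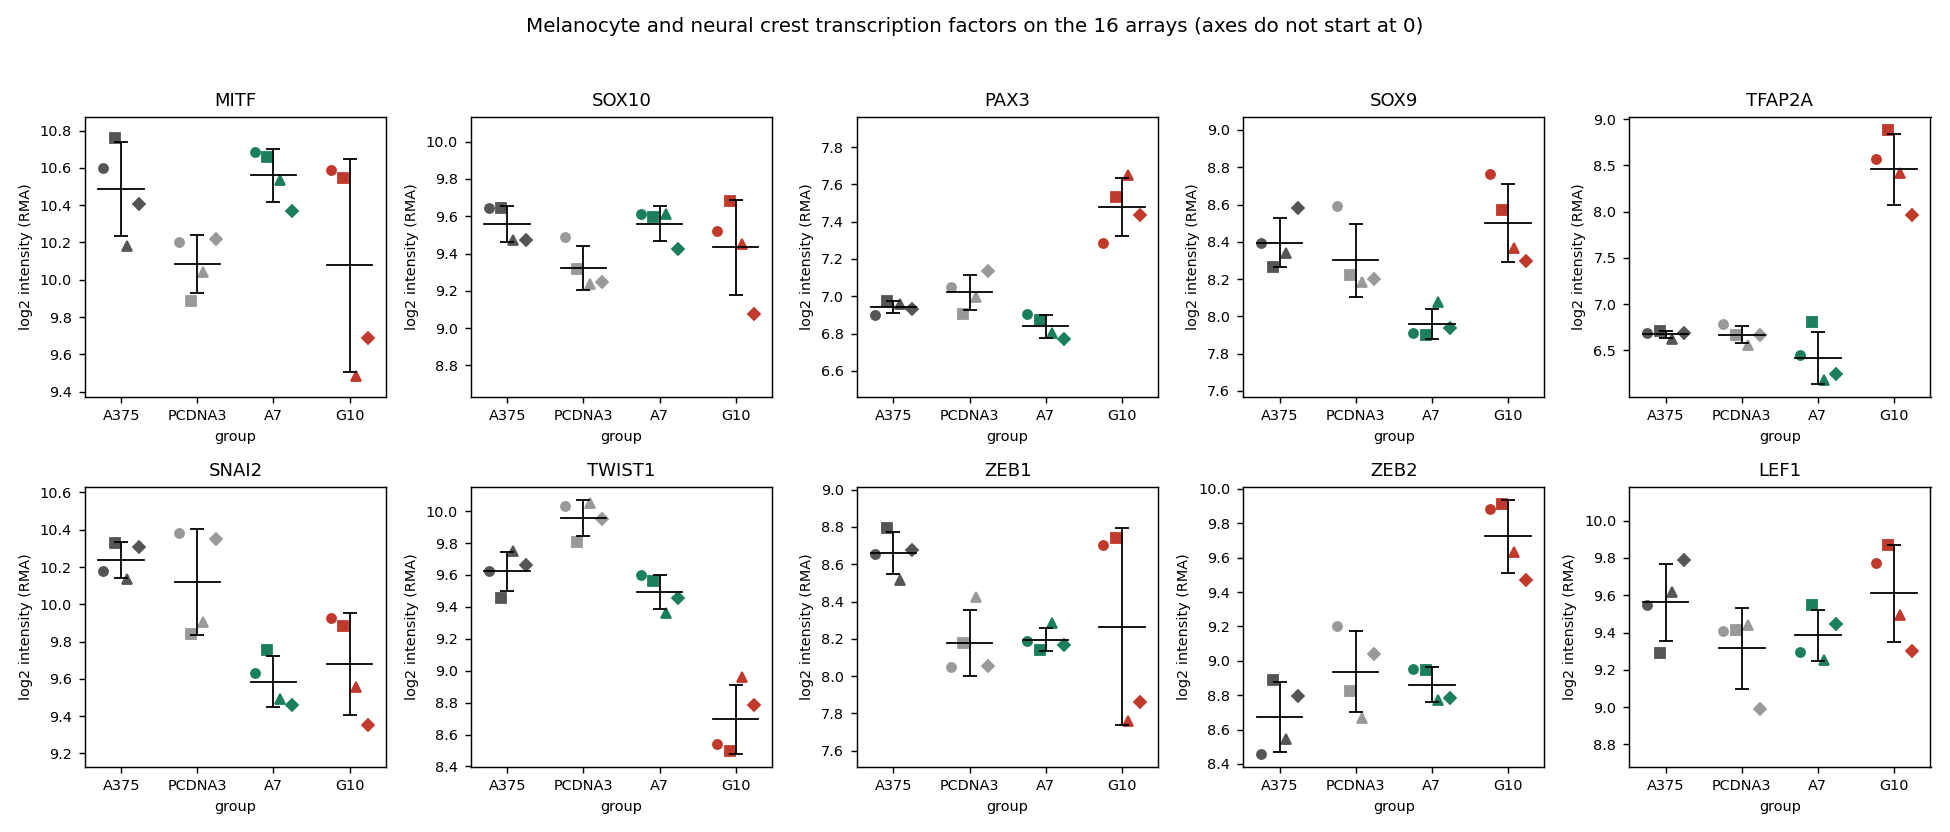
Log2 intensity (vertical axes, which do not start at 0) of the 10 transcription factors on each array of A375, PCDNA3, A7 and G10 (horizontal axes). Points are arrays, in each group replicates 1 to 4 from left to right, and lines and bars are mean ± SD (n = 4). TFAP2A, ZEB2 and PAX3 stand above all other groups in G10, TWIST1 stands below them, and MITF and ZEB1 split within G10.

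MITF, SOX10 and PAX3 form the core of the melanocyte lineage, and only PAX3 passed the test in a comparison. MITF was high everywhere. It read 10.60, 10.76, 10.18 and 10.41 in A375, 10.20, 9.88, 10.04 and 10.22 in PCDNA3, 10.68, 10.66, 10.54 and 10.37 in A7, and 10.59, 10.55, 9.48 and 9.69 in G10. The A7 arrays overlapped A375, and the G10 arrays fell on both sides of the control, replicates 1 and 2 in the upper part of its range and replicates 3 and 4 below all 8 control arrays. Replicates 1 and 2 also read higher than replicates 3 and 4 in A375 and in A7, with a smaller gap than in G10, but not in PCDNA3. The difference of A7 from control was 0.28 (95% interval -0.12 to 0.67, adjusted p = 0.511), and that of G10 was -0.21 (-0.60 to 0.18, adjusted p = 0.532). G10 differed from A7 by -0.48 (-0.94 to -0.03, adjusted p = 0.161). Without G10 replicates 3 and 4 the difference of G10 from control was 0.28 (adjusted p = 0.190) and that from A7 was 0.01 (adjusted p = 0.989), and without replicate 1 alone the latter was -0.66 and passed the test (adjusted p = 0.0471). The array reads all MITF isoforms in 1 cluster, so the melanocyte isoform cannot be told apart from the others. In cell populations measured as a whole, fewer cells with a transcript and less of it per cell cannot be told apart either.

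SOX10, a neural crest factor that keeps melanocytes and glia in their lineage, varied least between groups among these 3. Its means ± SD were 9.56 ± 0.10 in A375, 9.32 ± 0.12 in PCDNA3, 9.56 ± 0.09 in A7 and 9.43 ± 0.26 in G10 (n = 4 each), and each neighbouring pair in this order of levels overlapped. The 95% interval of its difference from control was -0.09 to 0.33 in A7 and -0.22 to 0.20 in G10 (adjusted p = 0.611 and 0.975). Neither interval reached beyond 0.33 in size.

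PAX3, a paired box factor of neural crest and melanocyte precursors, was upregulated in G10. It read 7.28, 7.53, 7.65 and 7.44 in G10, 6.90, 6.98, 6.96 and 6.93 in A375, 7.05, 6.91, 7.0 and 7.13 in PCDNA3, and 6.91, 6.87, 6.80 and 6.77 in A7. All 4 G10 arrays lay above all 12 others, while the other 3 groups overlapped their neighbours. The rise over control was 0.50 (SE 0.07, adjusted p = 0.000163), or 1.41-fold, and the rise over A7 was 0.64 (SE 0.08, adjusted p = 6.61e-05). A7 differed from control by -0.14 (95% interval -0.30 to 0.01, adjusted p = 0.343).

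SOX9, TFAP2A and LEF1 are factors of the early neural crest and of its signals. TFAP2A, an AP-2 factor that marks the neural crest and premigratory melanoblasts, showed the largest difference of the 10 genes in both G10 comparisons. It read 8.57, 8.89, 8.42 and 7.97 in G10. The 12 other arrays were far below: 6.69, 6.71, 6.62 and 6.69 in A375, 6.78, 6.66, 6.56 and 6.67 in PCDNA3, and 6.45, 6.81, 6.18 and 6.25 in A7. The upregulation was 1.79 over control (SE 0.14, adjusted p = 2.82e-07), which is 3.46-fold, and 2.04 over A7 (SE 0.16, adjusted p = 3.25e-07). A7 and control overlapped, with a difference of -0.25 (95% interval -0.55 to 0.05, adjusted p = 0.399). Without G10 replicates 3 and 4 the rise over control was 2.06 (adjusted p = 2.85e-07).

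Other AP-2 genes did not follow TFAP2A. TFAP2B, an AP-2 factor of the neural crest and kidney, read 6.56, 6.96, 7.12 and 6.90 in G10 against 8.41 to 9.03 in the 8 control arrays and 8.33 to 8.50 in A7. It was downregulated in G10 by 1.84 on the log2 scale against control (log2 difference -1.84, SE 0.12, adjusted p = 1.87e-08) and by 1.54 against A7 (log2 difference -1.54, SE 0.13, adjusted p = 8.91e-07). TFAP2C and TFAP2E differed from control in G10 by -0.16 (95% interval -0.56 to 0.25) and -0.01 (-0.27 to 0.25), and neither passed the test. The G10 values of TFAP2C were 8.82, 9.0, 10.03 and 9.55, so replicates 3 and 4 lay above replicates 1 and 2. TFAP2A-AS1, a noncoding gene on the strand opposite TFAP2A whose promoter window shares 26 bases with the TFAP2A window shown above, was looked up after these values were seen. It read 6.28, 6.33, 5.96 and 6.27 in G10 and 5.31 to 5.58 in the control arrays, a rise of 0.76 (SE 0.08, adjusted p = 9.78e-06).

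**Figure D2:**
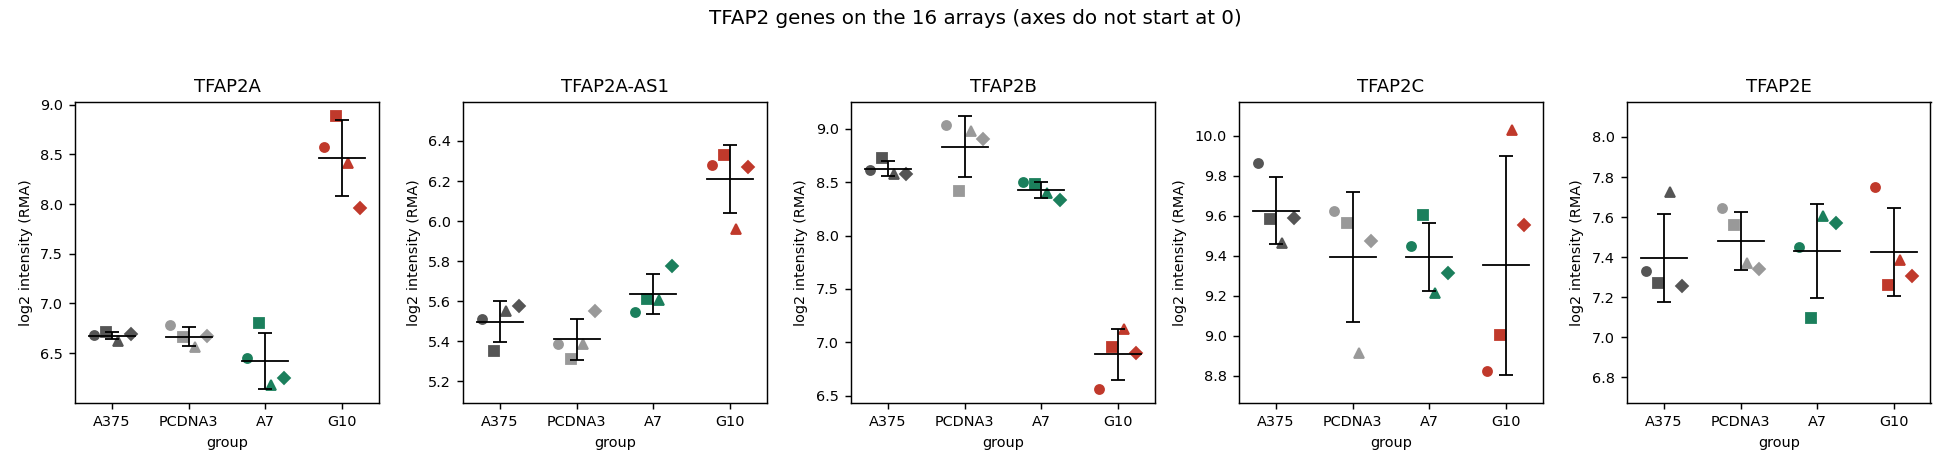
Log2 intensity (vertical axes, which do not start at 0) of 4 AP-2 genes and of TFAP2A-AS1 on each array of the 4 groups. Points are arrays, replicates 1 to 4 from left to right, and bars are mean ± SD (n = 4). In G10, TFAP2A and TFAP2A-AS1 stand above every other array and TFAP2B stands below every other array.

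SOX9, a relative of SOX10 that is active in neural crest and cartilage, was the lowest in A7. It read 7.91, 7.90, 8.08 and 7.94 in A7, 8.40, 8.27, 8.34 and 8.58 in A375, 8.59, 8.22, 8.18 and 8.20 in PCDNA3, and 8.76, 8.57, 8.37 and 8.30 in G10. All A7 arrays lay below all other arrays, and the other 3 groups overlapped. A7 was downregulated against control by 0.39 (log2 difference -0.39, SE 0.10, adjusted p = 0.0321), and G10 exceeded A7 by 0.54 (SE 0.12, adjusted p = 0.00408). The difference of G10 from control was 0.15 (95% interval -0.06 to 0.37, adjusted p = 0.375). The A7 call was lost with PCDNA3 alone as control (-0.34, adjusted p = 0.124) and without A375 replicate 1 or 4 or A7 replicate 1, 2 or 4, where adjusted p lay between 0.0543 and 0.109, whereas the G10 vs A7 call was lost only under a stricter rule that asked for a difference of at least 1.

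LEF1, which joins beta-catenin on WNT target genes, passed no test. Its means ± SD were 9.56 ± 0.21 in A375, 9.31 ± 0.22 in PCDNA3, 9.38 ± 0.14 in A7 and 9.61 ± 0.26 in G10 (n = 4 each), and neighbours in the order of levels overlapped. The differences from control were -0.05 (95% interval -0.31 to 0.21) in A7 and 0.17 (-0.09 to 0.43) in G10.

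The 4 genes known from the epithelial to mesenchymal transition moved in different directions in G10, where TWIST1 and SNAI2 fell and ZEB2 rose. TWIST1, a basic helix-loop-helix factor of the mesenchyme, read 8.54, 8.50, 8.96 and 8.78 in G10. Its levels elsewhere were 9.62, 9.45, 9.75 and 9.66 in A375, 10.03, 9.80, 10.05 and 9.95 in PCDNA3, and 9.60, 9.56, 9.36 and 9.45 in A7. All G10 arrays lay below all others, and all PCDNA3 arrays lay above all others. TWIST1 fell by 1.10 in G10 against control (log2 difference -1.10, SE 0.09, adjusted p = 7.63e-07), a 2.14-fold difference, and by 0.80 against A7 (log2 difference -0.80, SE 0.11, adjusted p = 8.72e-05). In A7 the difference from control was -0.30 (95% interval -0.50 to -0.10, adjusted p = 0.0854), and it passed the test with PCDNA3 alone as control (-0.46, adjusted p = 0.0208), with only the arrays compared (adjusted p = 0.0382), after quantile normalization (adjusted p = 0.0469), with array weights (adjusted p = 0.0233) and without G10 replicate 3 (adjusted p = 0.0460) or replicates 3 and 4 (adjusted p = 0.0253).

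SNAI2, a zinc finger repressor needed by migrating neural crest cells and melanoblasts, was lower in both clones. It read 9.63, 9.76, 9.49 and 9.46 in A7 and 9.93, 9.88, 9.56 and 9.35 in G10, against 10.18, 10.33, 10.13 and 10.30 in A375 and 10.38, 9.84, 9.91 and 10.35 in PCDNA3. All A7 arrays lay below all control arrays, while G10 overlapped PCDNA3. SNAI2 fell by 0.59 in A7 (log2 difference -0.59, SE 0.13, adjusted p = 0.00961), a call that only the stricter rule ended, and by 0.50 in G10 (log2 difference -0.50, SE 0.13, adjusted p = 0.0104). The G10 call was lost with PCDNA3 alone as control (adjusted p = 0.0516) and without G10 replicates 3 and 4 (-0.27, adjusted p = 0.209). The clones differed by 0.09 (95% interval -0.21 to 0.40). SNAI1, its close relative, fell in both clones too, by -0.57 in A7 (adjusted p = 0.00665) and -0.67 in G10 (adjusted p = 0.000616).

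ZEB2, a zinc finger and homeobox factor of neural crest and melanocytes, was upregulated in G10. It read 9.88, 9.91, 9.64 and 9.47 in G10, 8.46, 8.89, 8.55 and 8.80 in A375, 9.21, 8.83, 8.67 and 9.04 in PCDNA3, and 8.95, 8.95, 8.77 and 8.78 in A7. All G10 arrays lay above all others, and the other 3 groups overlapped their neighbours. The rise was 0.92 over control (SE 0.12, adjusted p = 4.01e-05), or 1.89-fold, and 0.86 over A7 (SE 0.13, adjusted p = 0.000299), while A7 differed from control by 0.06 (95% interval -0.19 to 0.30). The second ZEB2 cluster lay below the level of unexpressed genes in every group, with means from 3.05 to 3.81, so no size of change is given for it.

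ZEB1, its paralogue, showed no such shift. It read 8.65, 8.79, 8.52 and 8.68 in A375, 8.05, 8.18, 8.42 and 8.06 in PCDNA3, 8.19, 8.14, 8.28 and 8.17 in A7, and 8.70, 8.74, 7.76 and 7.86 in G10. As for MITF, G10 replicates 1 and 2 lay at the A375 level and replicates 3 and 4 lay below all other arrays. G10 differed from control by -0.15 (95% interval -0.50 to 0.19) and from A7 by 0.07 (-0.33 to 0.47). Without G10 replicates 3 and 4 the difference from control was 0.30 (adjusted p = 0.0514), and that from A7 was 0.53 and passed the test (adjusted p = 0.00406).

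Calls among the 10 genes were counted at an adjusted p under 0.05 over all clusters in limma. In A7 vs control 0 rose and 2 fell (SOX9 and SNAI2), and over all clusters 3.46% rose and 2.23% fell. At an unadjusted p under 0.05, 0 were higher and 3 lower there. In G10 vs control 3 rose (PAX3, TFAP2A and ZEB2) and 2 fell (SNAI2 and TWIST1), with 9.92% and 7.9% of all clusters. In G10 vs A7 4 rose (PAX3, SOX9, TFAP2A and ZEB2) and 1 fell (TWIST1), with 7.83% and 7.38% of all clusters. In PCDNA3 vs A375 0 were called, with 0.045% of all clusters higher and 0.0781% lower. At an unadjusted p under 0.05, 2 of the 10 differed there, TWIST1 by 0.34 and ZEB1 by -0.48, and in both the 2 groups did not overlap. Without G10 replicates 3 and 4, which changes only the estimate of the spread here, both passed the test (adjusted p = 0.0464 and 0.0120). MITF, SOX10, ZEB1 and LEF1 were called in no comparison. The median difference of the 10 genes was -0.18 in A7 and 0.07 in G10, and that of all clusters was -0.02 and -0.04.

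**Figure D3:**
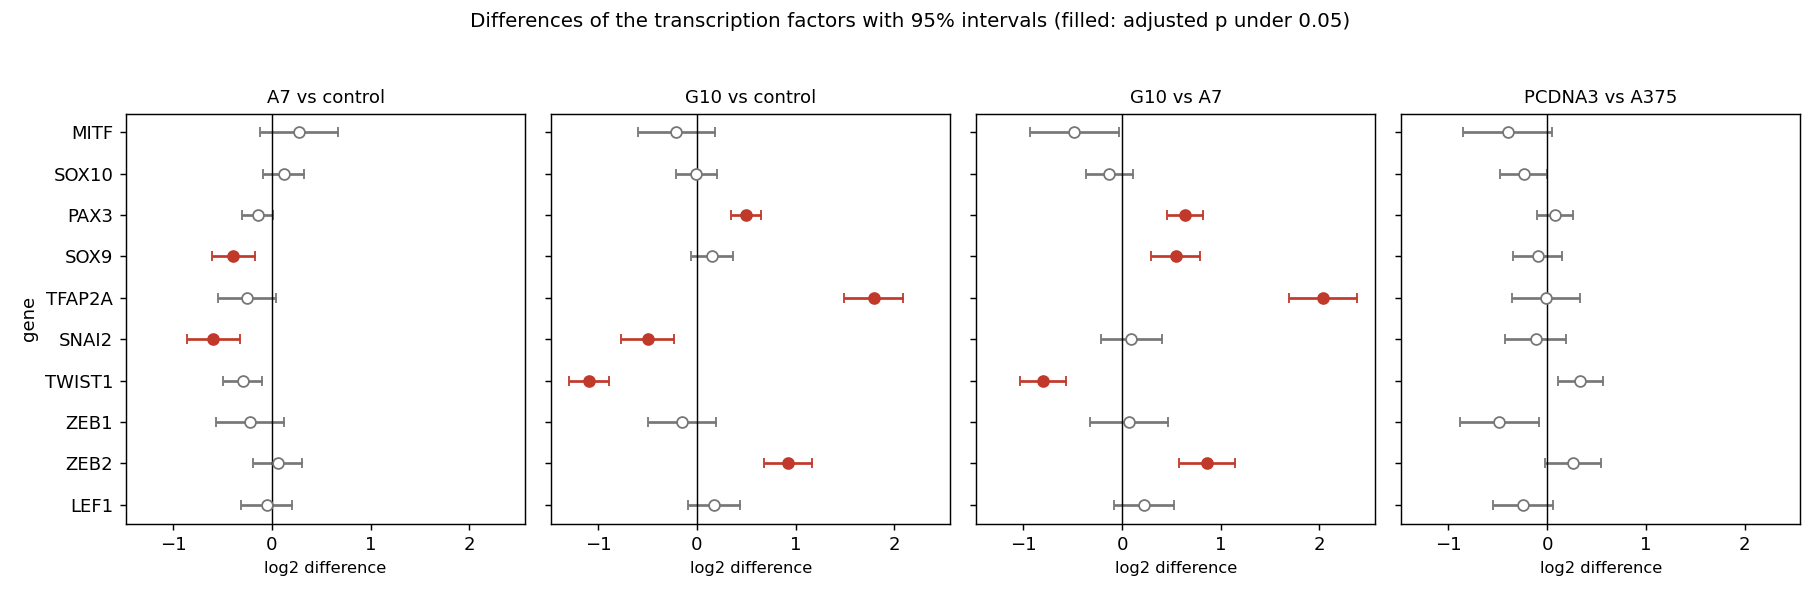
Log2 differences (horizontal axes) of the 10 transcription factors (vertical axis) in the 4 comparisons, with 95% intervals. Filled points had an adjusted p under 0.05. G10 departs most at TFAP2A (1.79) and TWIST1 (-1.10), and no gene is filled in PCDNA3 vs A375.

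The relatives of the 10 genes, 30 of which were measured, gave 1 call upward and 4 downward in A7, with 3.46% and 2.23% of all clusters. In G10 they gave 6 upward and 8 downward, with 9.92% and 7.9% of all clusters. The 5 calls in A7 were 3 without A375 replicate 3 or 4, PCDNA3 replicate 1 or A7 replicate 3, 2 without A7 replicate 1, and 1 without A7 replicate 2. They were also 3 with A375 alone or with PCDNA3 alone as control. MSX2, a homeobox factor of the neural crest, rose in A7 (0.46, adjusted p = 0.0204), but not past the test without A7 replicate 2 (adjusted p = 0.0929) or with A375 alone as control (adjusted p = 0.139). In G10, PRRX1, a homeobox factor of mesenchyme, fell by -0.83 (SE 0.10, adjusted p = 2.45e-05), and SOX6, a relative of SOX10, rose by 0.76 (SE 0.12, adjusted p = 0.000278). ALX1, a homeobox factor of the cranial neural crest, was higher in G10 than in A7 by 1.03 (SE 0.12, adjusted p = 2.59e-05).

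Of 30 cofactors, 3 rose and 2 fell in A7, with 3.46% and 2.23% of all clusters. In G10, 2 rose and 6 fell, with 9.92% and 7.9% of all clusters. The 5 calls in A7 were 3 without A7 replicate 1 or 2 and 2 with A375 alone as control. The 8 calls in G10 were 13 without G10 replicates 3 and 4. TCF4, an E protein that pairs with TWIST1, rose in both clones. It read 6.96, 6.97, 6.70 and 6.44 in A7 and 7.09, 7.24, 6.91 and 6.76 in G10, whereas the 8 control arrays lay between 5.09 and 5.60. The rises were 1.37 in A7 (SE 0.12, adjusted p = 2.85e-06) and 1.59 in G10 (SE 0.12, adjusted p = 1.70e-07). CITED4, a coactivator of AP-2 factors, fell in G10 by -0.99 (SE 0.14, adjusted p = 0.000158). CTNNB1, which encodes beta-catenin, the partner of LEF1, differed between G10 and A7 by -0.69 (SE 0.10, adjusted p = 0.00022).

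Of 22 genes that act upstream of MITF, 0 rose and 2 fell in A7, with 3.46% and 2.23% of all clusters. In G10, 0 rose and 4 fell, with 9.92% and 7.9% of all clusters. At an unadjusted p under 0.05 these counts were 2 and 6 in A7 and 3 and 7 in G10. The 2 calls in A7 were 1 without A7 replicate 1 and 5 without G10 replicates 3 and 4. KIT itself lay below the level of unexpressed genes in A7 and G10, with means of 3.64 and 3.84. KITLG encodes the ligand of KIT. It read 4.69, 4.83, 6.24 and 6.06 in G10, 6.96 to 7.95 in the control arrays and 6.93 to 7.28 in A7, so replicates 1 and 2 of G10 lay below the level of unexpressed genes and replicates 3 and 4 above it. Its difference from control was -2.06 (SE 0.24, adjusted p = 1.54e-05). FZD7, a WNT receptor, read 7.37, 7.24, 7.82 and 7.86 in G10 and 9.08 to 9.86 in the control arrays, a fall of -1.91 (SE 0.12, adjusted p = 1.37e-08). WNT5A, a ligand of the noncanonical WNT pathway, fell in A7, where it read 6.06, 5.62, 6.07 and 6.49 against 6.67 to 8.79 in the control arrays (-1.57, SE 0.29, adjusted p = 0.00405).

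MITF targets include genes of pigment synthesis and transport, of the cell cycle and of survival. Of 31 measured targets, 8 rose and 1 fell in A7, with 3.46% and 2.23% of all clusters, and the median difference was 0.26. In G10, 6 rose and 7 fell, with 9.92% and 7.9% of all clusters and a list median of -0.01, and without G10 replicates 3 and 4, 9 rose and 5 fell. Between the clones, 3 were higher and 14 lower in G10, with 7.83% and 7.38% of all clusters and a list median of -0.46. Without A7 replicate 2, 5 targets rose and 0 fell in A7. TYRP1, TYR, MLANA and a further target, OCA2, were named by the study from these arrays, so their changes in A7 are not independent of that choice. Its supplement also lists TYRP1 as upregulated in G10, so that change is not independent either.

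TYRP1, an enzyme of melanin synthesis, read 8.48, 8.35, 8.0 and 8.03 in A7 and 7.45, 7.40, 7.51 and 7.41 in G10. The control arrays were lower and apart from each other, with 4.99, 5.49, 5.41 and 5.00 in A375 and 6.96, 6.31, 5.69 and 7.05 in PCDNA3. The rise over control was 2.35 in A7 (SE 0.20, adjusted p = 2.33e-06) and 1.58 in G10 (SE 0.20, adjusted p = 4.43e-05). PCDNA3 exceeded A375 by 1.28 (SE 0.23, adjusted p = 0.0432), the one call between the controls among the genes and lists described here. It was lost without any 1 of the A375 or A7 arrays, PCDNA3 replicate 1, 2 or 4, or G10 replicate 1 or 2, with only the arrays compared, after median centring and with robust variances (adjusted p up to 0.145). TYR, the rate-limiting enzyme of melanin synthesis, read 7.67, 7.65, 6.78 and 6.69 in A7 and 4.64, 4.51, 7.13 and 5.92 in G10. The control arrays of TYR read 4.74 to 5.44 in A375 and 6.33, 4.36, 5.28 and 6.58 in PCDNA3. They lay on both sides of the level of unexpressed genes, and PCDNA3 replicates 1 and 4 came close to A7 replicates 3 and 4. In TYR, replicates 3 and 4 of G10 were above the level of unexpressed genes and replicates 1 and 2 below it, the reverse of their order in MITF. The A7 rise of TYR was 1.81 (SE 0.46, adjusted p = 0.0299), and the call was lost with PCDNA3 alone as control and without A375 replicate 3, PCDNA3 replicate 3 or A7 replicate 1, 2 or 3 (adjusted p from 0.0522 to 0.126).

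PMEL and MLANA, which encode a melanosome fibre protein and a melanosome antigen, also differed within G10. PMEL read 9.16, 9.30, 10.82 and 11.35 in G10 and 6.87 to 9.35 in the control arrays, a rise of 2.46 (SE 0.45, adjusted p = 0.000939) that was 1.54 without replicates 3 and 4 (adjusted p = 0.0306). MLANA read 7.96, 8.21, 9.78 and 9.57 in G10 and 9.65, 9.89, 9.38 and 9.20 in A7, against 7.54 to 9.09 in the control arrays. In both genes G10 replicates 3 and 4 were the higher ones. PCDNA3 differed within itself too, with replicates 1 and 4 the higher ones. On its replicates 1 to 4, PMEL read 9.04, 6.98, 7.44 and 9.35 and MLANA 9.04, 7.63, 8.28 and 9.09. PCDNA3 replicates 1 and 4 thus lay above all A7 arrays in PMEL. MLANA rose in A7 by 1.29 (SE 0.34, adjusted p = 0.0358). This call did not hold with PCDNA3 alone as control (adjusted p = 0.187), nor without A375 replicate 1, 3 or 4, PCDNA3 replicate 2 or 3, or any 1 of the A7 arrays (adjusted p up to 0.125). SLC24A5, an ion exchanger of the melanosome, had the largest difference of the targets. It read 3.45, 3.53, 4.82 and 3.98 in G10, all below the level of unexpressed genes, and 7.49 to 8.63 in the control arrays. The fall in G10 was at least 3.09 on the log2 scale, or at least 8.52-fold, with a measured difference of -4.33 (adjusted p = 1.47e-09).

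**Figure D4:**
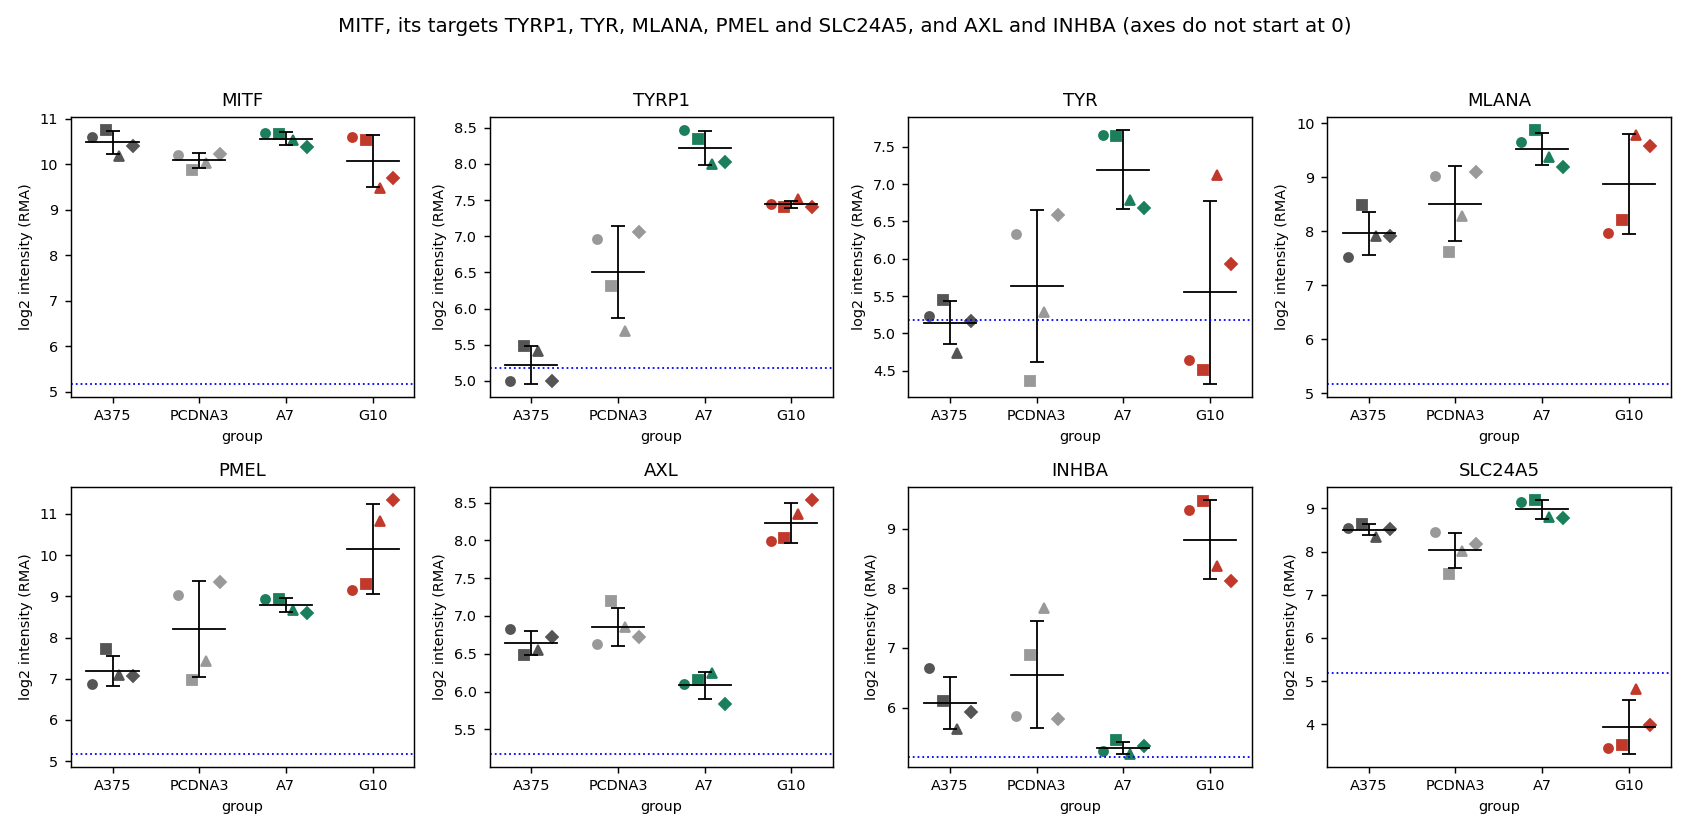
Log2 intensity (vertical axes, which do not start at 0) of MITF, of its targets TYRP1, TYR, MLANA, PMEL and SLC24A5, and of AXL and INHBA on each array of the 4 groups. Points are arrays, replicates 1 to 4 from left to right, bars are mean ± SD (n = 4), and the dotted line is the level of unexpressed genes (5.18). TYRP1 is high in both clones, SLC24A5 is below the dotted line in G10, and TYR in G10 lies on both sides of it.

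Genes of the low-MITF state are those that melanoma cells express when dedifferentiated. Of 23 measured, 12 rose and 1 fell in G10 vs control, with 9.92% and 7.9% of all clusters, and the median difference was 0.53. In A7 1 rose and 2 fell, with 3.46% and 2.23% of all clusters, or 3 and 4 without G10 replicates 3 and 4. Between the clones 12 were higher and 2 lower in G10, with 7.83% and 7.38% of all clusters. Without G10 replicates 3 and 4, 12 rose and 2 fell in G10 vs control. INHBA and CCN2 are among the genes the study named from these arrays, and its supplement lists AXL and CCN1 (as CYR61) as upregulated in G10. The place of these genes here is therefore not independent of these data. AXL, a receptor kinase, read 7.99, 8.04, 8.35 and 8.54 in G10, 5.84 to 6.24 in A7 and 6.48 to 7.20 in the control arrays, with no overlap between the 3. It rose in G10 by 1.48 (SE 0.13, adjusted p = 7.31e-07) and fell in A7 by -0.66 (SE 0.13, adjusted p = 0.00458). INHBA, which encodes an activin subunit, read 9.32, 9.46, 8.37 and 8.12 in G10, 5.22 to 5.46 in A7 and 5.64 to 7.67 in the control arrays. Its rise in G10 was 2.50 (SE 0.33, adjusted p = 5.59e-05). Within PCDNA3, INHBA was higher on replicates 2 and 3 (6.88 and 7.67) than on replicates 1 and 4, as was WNT5A. CCN1, a matrix protein, rose by 1.38 in G10 (SE 0.13, adjusted p = 1.36e-06).

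SOX10 targets were split. Of 12, 2 rose and 1 fell in A7, with 3.46% and 2.23% of all clusters. In G10, 3 rose and 2 fell, with 9.92% and 7.9% of all clusters. The calls in A7 were 1 without A7 replicate 2 and 6 without G10 replicates 3 and 4, and those in G10 were then 8. ERBB3, a neuregulin receptor of neural crest derivatives, and CDH19, a cadherin of the same cells, rose in G10 by 0.83 (adjusted p = 0.00109) and 0.80 (adjusted p = 0.000219). GPM6B, a myelin proteolipid relative, rose in A7 by 0.91 (SE 0.18, adjusted p = 0.00582). Of 24 LEF1 and beta-catenin targets, 1 rose and 1 fell in A7 and 4 rose and 5 fell in G10, beside the same shares of all clusters. With A375 alone as control, 0 of them were called in A7. The rise in A7, of JAG1, a Notch ligand, was 0.67 (adjusted p = 0.0356) and was lost without A375 replicate 3 or 4, PCDNA3 replicate 1, 3 or 4, or any 1 of the A7 arrays, and with A375 alone as control or the control arrays pooled (adjusted p up to 0.264). DKK1, a secreted WNT inhibitor, read 4.41, 3.88, 9.84 and 8.65 in G10 and 3.54 to 4.91 in the control arrays, so only replicates 3 and 4 stood above the level of unexpressed genes. The rise was at least 1.52 (adjusted p = 0.0377), with a measured difference of 2.57 that was 0.02 without these 2 arrays (adjusted p = 0.964). The call was also lost without any 1 of the A375 arrays, PCDNA3 replicate 2, 3 or 4, or G10 replicate 3 or 4, with PCDNA3 alone as control, with only the arrays compared and with array weights.

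SNAI, ZEB and TWIST factors are known to repress genes of epithelia. Of 28 such genes measured, 18 lay above the level of unexpressed genes in a group. In A7, 2 rose and 1 fell, with 3.46% and 2.23% of all clusters, and in G10, 0 rose and 1 fell, with 9.92% and 7.9% of all clusters (2 higher and 1 lower at an unadjusted p under 0.05). The 3 calls in A7 were 1 without PCDNA3 replicate 3 or A7 replicate 1 or 3, and the 1 call in G10, of the claudin gene CLDN7 (-0.25, adjusted p = 0.0321), was lost without A375 replicate 2 or 4, PCDNA3 replicate 2, 3 or 4, any 1 of the G10 arrays or G10 replicates 3 and 4, with PCDNA3 alone as control, and after quantile normalization or median centring (adjusted p up to 0.117). CDH1, the E-cadherin gene and the best known of them, lay below that level in every group, and no size is given. Of 24 mesenchymal genes, 2 rose and 3 fell in A7, with 3.46% and 2.23% of all clusters, and 2 rose and 6 fell in G10, with 9.92% and 7.9%. Leaving out G10 replicates 3 and 4, 5 rose and 5 fell in G10. The 5 calls in A7 were 3 without A375 replicate 1, 2 without A7 replicate 1 or 2, and 1 without A7 replicate 3 or 4. They were also 3 with PCDNA3 alone as control and 2 with the control arrays pooled. COL1A2, a chain of type I collagen, read 5.79, 5.79, 5.63 and 5.74 in G10 and 7.13, 7.20, 6.19 and 6.06 in A7, against 9.24 to 10.69 in the control arrays. It fell by -3.23 in A7 (SE 0.27, adjusted p = 1.93e-06) and by -4.14 in G10 (SE 0.27, adjusted p = 3.27e-08). FN1, which encodes fibronectin, read 10.39, 10.34, 9.71 and 8.91 in G10 and 11.58 to 12.53 in the control arrays, a fall of -2.28 (SE 0.23, adjusted p = 4.99e-06).

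**Figure D5:**
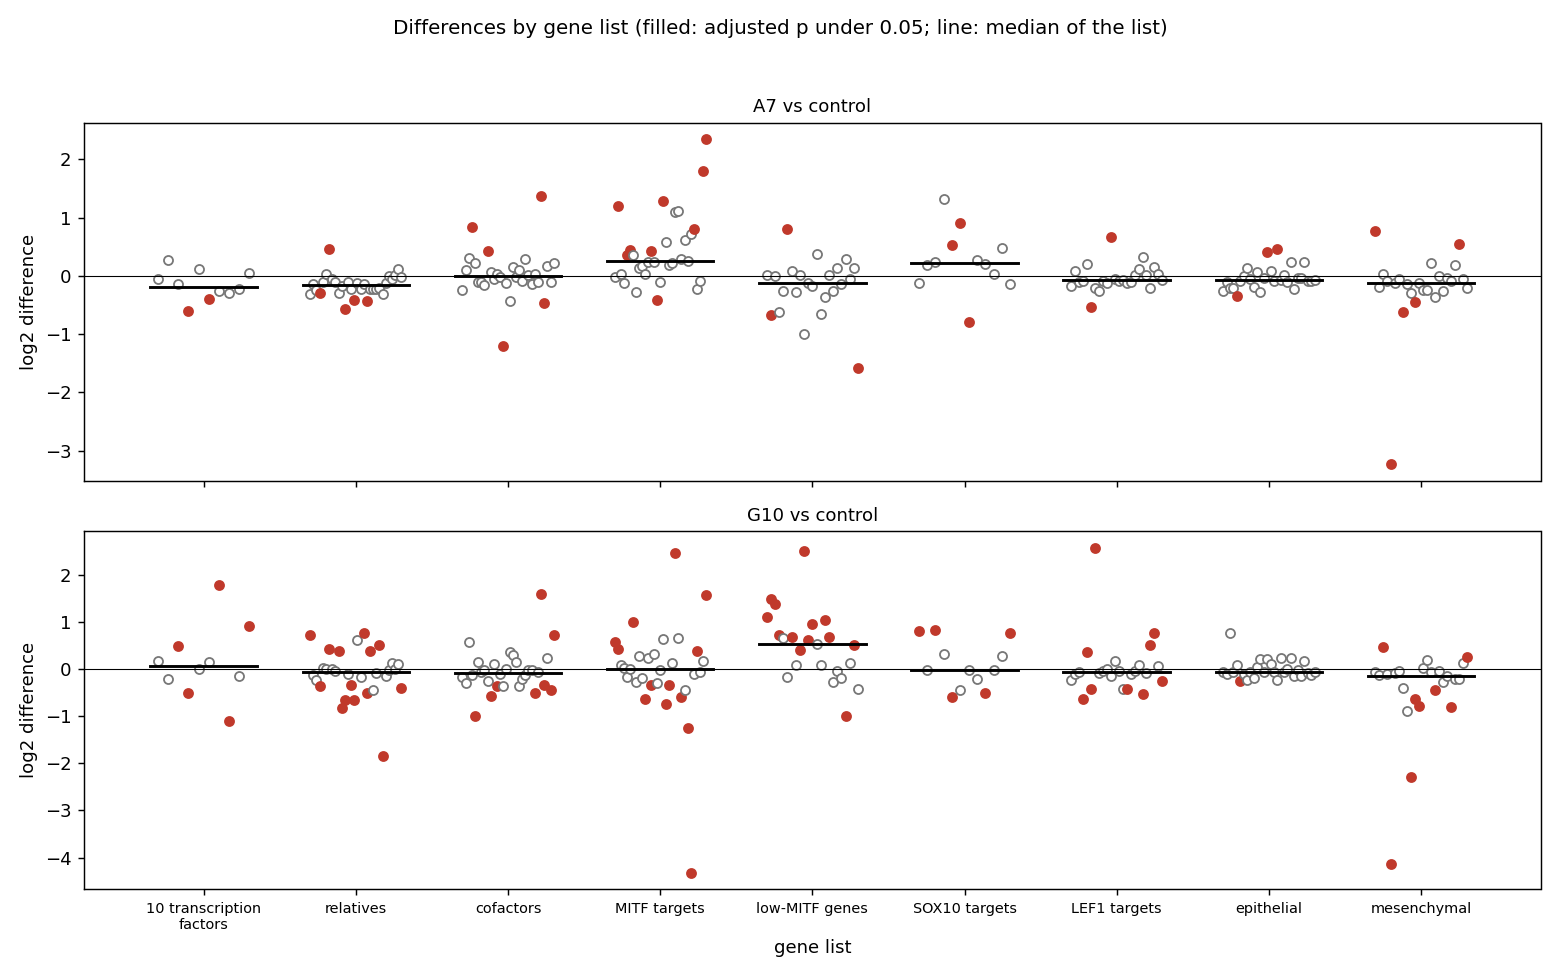
Log2 differences (vertical axes) of every measured gene of 9 gene lists (horizontal axis) in A7 vs control and G10 vs control. Each point is a gene, filled points had an adjusted p under 0.05, and lines are list medians, with genes below the level of unexpressed genes at their measured difference. MITF targets lie mostly above 0 in A7 (median 0.26) and low-MITF genes in G10 (median 0.53).

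The patterns over the 16 arrays were compared with those of 13281 other genes above the level of unexpressed genes, as a description in which the arrays share their groups. TFAP2A was most like the zinc finger genes ZNF420 (Pearson r = 0.984) and ZNF808 (r = 0.983). TWIST1 was most like KITLG (r = 0.968) and SLC12A2 (r = 0.965). PAX3 was most like MYO1C (r = 0.968) and HLA-DOA (r = 0.949), and ZEB2 was most like PRKAB1 (r = 0.972) and IFITM2 (r = 0.963). MITF, which splits within G10, was most like P2RX7 (r = 0.969) and SLC35E2A (r = 0.958), and ZEB1 was most like FAM234B (r = 0.951) and ITIH6 (r = 0.939). SNAI2 was most like NID1 (r = 0.919) and FOSL2 (r = 0.900), SOX10 was most like DGUOK (r = 0.913) and TTBK2 (r = 0.879), and SOX9 was most like PPP2R5D (r = 0.879) and SHARPIN (r = 0.860). LEF1 had the weakest likeness, to ACTMAP (r = 0.811) and NLGN2 (r = 0.808).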

How the data were processed

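The deposited table holds log2 intensities that the authors obtained from 16 Affymetrix Human Gene 1.0 ST arrays by RMA, which corrects background, normalizes between arrays and joins probes into transcript clusters. For RMA and the authors' limma no version is given in the sources. Of the clusters, 19460 carry 1 gene symbol in the array annotation, 1754 several and 12083 none, and only the first kind was named.

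Group means were fitted to all 16 arrays with limma 3.58.1 in R 4.3.3, and variances were moderated with eBayes (3.57 prior degrees of freedom). Benjamini-Hochberg adjustment covered every cluster, and an adjusted p under 0.05 made a call. The procedure was tested on simulated data. Python 3.11.15, pandas 2.3.3 and matplotlib 3.10.9 served for the rest. Arrays give no counts, so the number of arrays limits the precision.

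The 95th percentile of 381 olfactory receptor clusters (5.18) was the level of unexpressed genes. With 1 side of a comparison below it, a bound is given against the dimmer group with each of its arrays raised to that level, and with both sides below, no size.

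The 10 genes, the lists and the tests were chosen with earlier results of these data known. From the same arrays the study named DKK1 as upregulated in G10 and listed TWIST1, KITLG and FN1 as downregulated there. It also listed TFAP2A and ALX1 as higher in G10 than in A7. Each list was to name up to 3 genes per comparison, those with the largest differences among its called genes, beside defining cell type markers, CAT, TYRP1 and the 2 genes most correlated with each of the 10. Not every gene the rule allows is described. CDH1, KIT, the other AP-2 genes, TFAP2A-AS1 and the second value of SNAI1 were added after their values were seen. Alternatives changed the control group, the arrays fitted, the scaling (quantile or median), the variance model (trend, robust, array weights), the cluster used per gene, the filter on dim clusters, the call rule and the replicate block, and left out each array. G10 replicates 3 and 4 were left out together as an alternative chosen after seeing the data.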

Additional observations from a re-analysis of the deposited data

Results flagged for a closer look

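Between the clones, 5 of the 10 transcription factors differed in the test of G10 against A7, 4 of them higher and 1 lower in G10, with 7.83% and 7.38% of all clusters. The log2 differences, G10 minus A7, were 2.04 for TFAP2A, 0.86 for ZEB2, 0.64 for PAX3, 0.54 for SOX9 and -0.80 for TWIST1.

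Among the 40 sets of 4 arrays, 1 for each gene and group, 3 held an array far from the other 3 by Dixon's test, for which chance gives about 1 in 20. SOX10 was lowest on A7 replicate 4, with 9.42. SOX9 was highest on PCDNA3 replicate 1, with 8.59. LEF1 was lowest on PCDNA3 replicate 4, with 8.99.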

How the results depend on the processing

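With a replicate block in the fit, the genes called among the 10 numbered 2 in A7 vs control, 5 in G10 vs control, 5 in G10 vs A7 and 0 in PCDNA3 vs A375, the same numbers as without it. Among other genes the text names, the block ended the A7 calls of TYR (adjusted p = 0.0516) and MLANA (adjusted p = 0.0594), the CLDN7 call in G10 (adjusted p = 0.0503) and the TYRP1 call between the controls (adjusted p = 0.0665), and it gave 2 calls in place of 5 among relatives in A7, 1 in place of 3 among epithelial genes in A7 and 0 in place of 1 among them in G10. Over all clusters, deviations from the group mean on arrays with the same replicate number had r from -0.161 to 0.230 (24 pairs, 3 of them over 0.1). Replicates 1 and 2 were not compared as a set with replicates 3 and 4 across the groups. FN1 was higher on replicates 1 and 2 than on replicates 3 and 4 in all 4 groups, and MITF in all but PCDNA3. In A7 this order also held for PAX3, TFAP2A, SNAI2, TWIST1, ZEB2, TYRP1, MLANA, PMEL, SLC24A5, TCF4 and KITLG. SOX9 and WNT5A had the reverse order in A7, and SOX10, ZEB1, LEF1, AXL, INHBA, SNAI1, DKK1 and FZD7 were mixed. On replicates 1 to 4, COL1A2 read 7.13, 7.20, 6.19 and 6.06 in A7 and 10.23, 10.18, 9.26 and 9.24 in A375. In PCDNA3 it read 9.79, 10.69, 9.40 and 10.25. TYR stood higher on replicates 1 and 2 in A7 and on replicates 3 and 4 in G10. Whether a step shared by the groups runs through other genes was not tested. At a log2 difference of at least 1 with an adjusted p under 0.001, 0 of the 10 genes were called in A7 vs control, 2 in G10 vs control and 1 in G10 vs A7. Leaving out 1 array at a time gave 1 to 3 calls in A7 vs control. In PCDNA3 vs A375, 2 were called when G10 replicates 3 and 4 were left out. Over all alternatives, 1090 differences of the 10 genes kept their direction and side of the threshold, 23 that were not called turned their sign, 17 lost their call and 10 gained one, and no called difference turned its sign. TFAP2A, ZEB2, PAX3 and TWIST1 in G10 vs control, and these 4 and SOX9 in G10 vs A7, lost their call at most under the stricter rule, whose size limit some of them miss. The 4 G10 arrays spread more widely than the other groups in MITF and ZEB1, which widens the intervals of these genes in every comparison, and isoforms and protein were not measured.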
